A study of Homo sapiens with 2 samples.

Results

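The anti-apoptotic members of the BCL2 family were followed in LNCaP cells, an established human prostate adenocarcinoma line, with and without C-phycocyanin (C-PC), a blue light-harvesting protein of cyanobacteria. These members were BCL2, BCL2A1, BCL2L1, BCL2L10, BCL2L2 and MCL1, 6 of the 84 target genes of a quantitative PCR panel for apoptosis (PAHS-012Z). The control sample received no agent, and the treated sample received C-PC at 500 µg/mL for 24 h, with 1 sample in each group. The labels describe both as epithelial cells of the same line and name no other difference between them, but give no separate culture time for the control. The panel carries no prostate epithelial marker, so the labelled cell type was not checked against its own genes.

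The deposited tables give plate positions and no gene names. The 6 genes were taken by position as wells A11 (BCL2), A12 (BCL2A1), B01 (BCL2L1), B02 (BCL2L10), B04 (BCL2L2) and E12 (MCL1). The names of these and of all other wells rest on the catalogue layout of the array, in which symbols run alphabetically from A01 to G12 and the housekeeping genes ACTB, B2M, GAPDH, HPRT1 and RPLP0 fill H01 to H05. No gene table of the array was used here, so every gene name below holds only as far as that layout does.

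Proteins of the BCL2 family decide whether the outer mitochondrial membrane is opened during apoptosis. The effectors BAX and BAK1 form the pores that release cytochrome c. The anti-apoptotic members bind and hold the effectors and the BH3-only proteins, such as BCL2L11 (BIM), BID, BAD, BIK and HRK, which act as stress sensors upstream. MCL1 is a short-lived protein, BCL2L1 gives BCL-XL as its long form, and BCL2 is the member first found at a translocation in lymphoma.

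Each value was a threshold cycle (Ct), the cycle at which the fluorescence of a well passes a set level, so that 1 cycle more stands for a 2-fold lower template at full efficiency. The tables hold 1 Ct per well and sample, although the design text speaks of 3 runs, and no spread between runs can be given. No test between the groups was possible with 1 sample each. All differences below describe these 2 samples and have no replicate check. Because the RNA came from whole cultures, fewer cells carrying a transcript and less of it per cell cannot be told apart.

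The scale of every fold comes from the reference wells. All 5 crossed later in the C-PC sample, by a mean of 0.76 ± 0.39 cycles (SD over 5 wells), with RPLP0 (H05) shifted least at 0.21 cycles and HPRT1 (H04) most at 1.21 cycles. The 72 target wells with a Ct under 35 in both samples had a smaller median shift of 0.24 cycles. A fold against the reference mean therefore stands 0.51 higher on the log2 scale than a fold against the median of these wells. Both are given for the BCL2 family genes, and the SD of 0.39 stands for the spread between single reference wells. That SD contains no error of the measured gene itself.

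Of the 6 anti-apoptotic transcripts, 4 were detected in both samples at a Ct under 35, namely MCL1, BCL2L2, BCL2L1 and BCL2. BCL2A1 was under 35 in the control alone, and BCL2L10 in neither sample. Of all 84 target wells, members included, 72 were under 35 in both samples and 5 in neither. Another 5 were under 35 in the control alone and 2 in the C-PC sample alone. With so few members, nothing particular to them is read from these detection counts. The members did not move as a block. BCL2L1 was higher in the C-PC sample, BCL2 was lower, and MCL1 and BCL2L2 lay between.

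**Figure D1:**
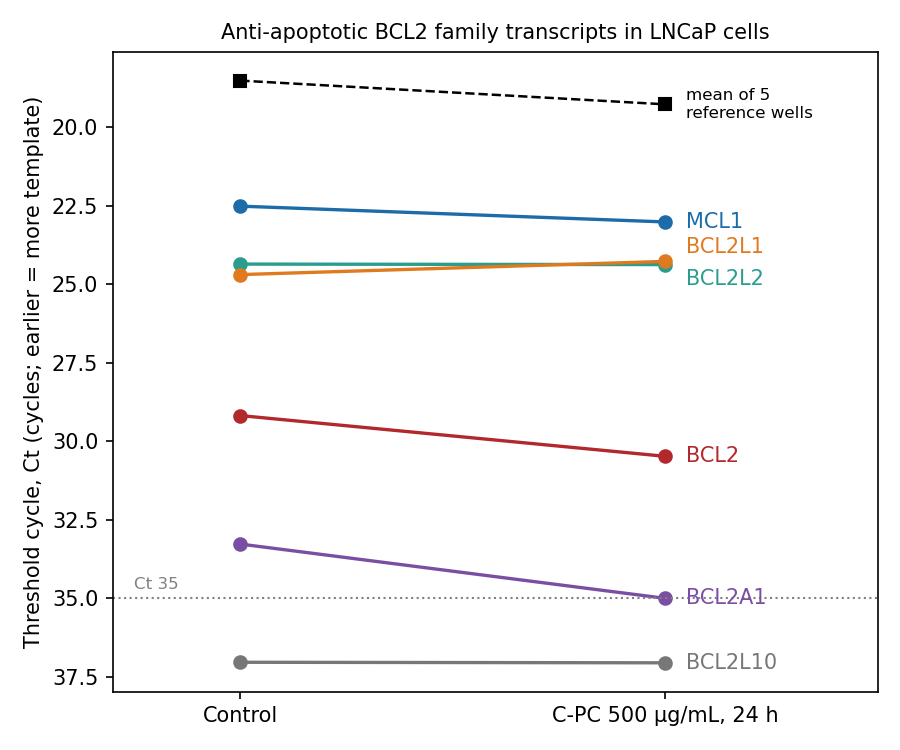
Ct of the 6 anti-apoptotic members in the control and the C-PC sample (1 value per point, vertical axis in cycles, turned so that earlier crossing is at the top), with the mean of the 5 reference wells as a dashed line. BCL2 crossed later by 1.30 cycles in C-PC, BCL2L1 crossed earlier, and the BCL2L1 and BCL2L2 lines cross each other.

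MCL1, which binds BAK1 and BCL2L11 among others, crossed first of the 6 members. Its Ct was 22.5 without C-PC and 23.0 with it. The shift of 0.50 cycles was smaller than that of the reference mean, which placed MCL1 1.19-fold higher in C-PC, at 0.25 ± 0.39 on the log2 scale (SD over the 5 reference shifts). This difference lay inside the spread of the reference wells. Its sign also depended on the reference, from -0.29 with RPLP0 alone to 0.71 with HPRT1 alone, and it was -0.26 against the median of the target wells. No direction can be given for MCL1.

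BCL2L2, which encodes BCL-W, had nearly the same Ct in both samples. It stood at 24.35 without C-PC and 24.37 with it, a shift of 0.016 cycles. The log2 fold of 0.74 ± 0.39, or 1.67-fold higher in C-PC, thus arose almost wholly from the later crossing of the reference wells. It was positive with each reference well alone, from 0.20 to 1.19, and 0.23 against the median of the target wells. Without any reference it was -0.016.

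BCL2L1, the gene of BCL-XL, was the member with the highest fold among the 4 detected. Its Ct was 24.7 without C-PC and 24.3 with it, so that it crossed 0.42 cycles earlier while all 5 reference wells crossed later. The level was 2.26-fold higher in C-PC, with a log2 fold of 1.18 ± 0.39. BCL2L1 was higher under every reference tried, at 0.63 with RPLP0 alone, 1.63 with HPRT1 alone, 0.66 against the median of the target wells and 0.42 with no reference. Its place past 2-fold was less firm, since it was 1.99-fold higher with ACTB alone, 1.55-fold with RPLP0 alone and 1.58-fold against the median of the target wells. Whether the assay separates the long form from the short, pro-apoptotic BCL-XS is not stated in the sources used here.

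BCL2 itself was the member with the lowest fold among the 4 detected and by far the latest of them to cross. The Ct was 29.2 without C-PC and 30.5 with it, a delay of 1.30 cycles that exceeded the delay of each of the 5 reference wells. The level was 1.46-fold lower in C-PC, with a log2 fold of -0.54 ± 0.39. It was lower under every reference tried, but the size ranged from -0.087 with HPRT1 alone to -1.08 with RPLP0 alone. Against the median of the target wells the log2 fold was -1.06, or 2.08-fold lower.

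**Figure D2:**
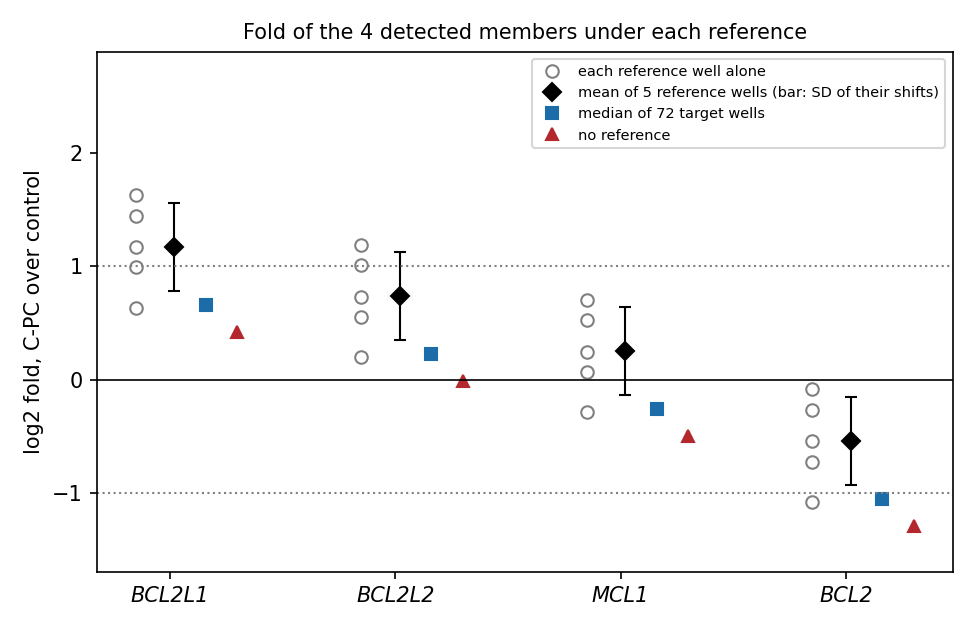
Log2 fold (C-PC over control) of the 4 members detected in both samples, against the mean of the 5 reference wells (diamond, bar for the SD of 0.39 of their shifts), each reference well alone (circles), the median of the 72 target wells (square) and no reference (triangle). Dotted lines mark 2-fold. BCL2L1 stays above 0 and BCL2 below 0 under all of them, while MCL1 falls on both sides.

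BCL2A1 (BFL-1), a member known mainly from blood cells, was measured near the limit. The control well read a Ct of 33.3 and the C-PC well exactly 35. The sources used here do not say what a deposited value of exactly 35 means. Read as a level no higher than 35 stands for, BCL2A1 was at least 1.96-fold lower in C-PC against the reference mean and at least 2.80-fold lower against the median of the target wells. The authors' deposited table gives a ratio of 0.508 for this well, which takes the 35 as a measured cycle.

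Genes of lymphocytes on the panel were also late. Of the 9 lymphocyte genes, 8 (all but TNF) had a control Ct of 33 or later, and CD40LG, FASLG and IL10 were at 35 or later in both samples. CD27 and TNFRSF9 were under 35 in the control alone, as BCL2A1 was, with control Ct values of 33.7 for CD27 and just above 33 for TNFRSF9. Their C-PC wells read exactly 35, like that of BCL2A1, and so did IL10 in both samples. The value is not a ceiling of the deposited Ct, since CD40LG read 36.1 in the control and 38.3 in C-PC. CD70 and TNFSF8 were under 35 in the C-PC sample alone. The summed level of the 9 genes was 0.0848% of the reference level in the control and 0.115% in C-PC, most of it TNF. The labels name the same cell line for both samples, so no other cell type is read from these values. A link between these genes and the BCL2A1 value was not tested.

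BCL2L10 (BCL-B), the remaining member, read 37.04 in the control and 37.05 with C-PC. Both lie past the limit of 35, so no fold is given, and a difference in this gene was not detectable in this assay. The authors' deposited table nevertheless lists a fold of 1.66 for it, close to the 1.69-fold that the shift of the reference wells gives to any well whose Ct does not move.

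Counted at 2-fold against the reference mean, 1 of the 4 detected members was higher (BCL2L1), 0 were lower and 3 lay between. Over all 72 detected target wells, members included, the shares past 2-fold were 20.8% for higher and 1.39% for lower. Against the median of the target wells, 0 of the 4 members were at least 2-fold higher and 1 was at least 2-fold lower (BCL2), where 9.72% and 6.94% of the 72 wells were. With 4 members, 1 is the smallest count above 0, and nothing particular to them is read from these counts. The median log2 fold of the 4 members was 0.50, against 0.51 for all 72 wells, so the members were centred where the panel was.

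Their places in the panel do not depend on any reference, because a reference moves all wells alike. Ordered by fold, BCL2 was the fifth lowest of the 72 wells, at place 5, and MCL1 was at place 20 from the bottom. BCL2L1 was at place 12 from the top and BCL2L2 at place 26. The 4 members were thus spread over most of the panel's order.

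**Figure D3:**
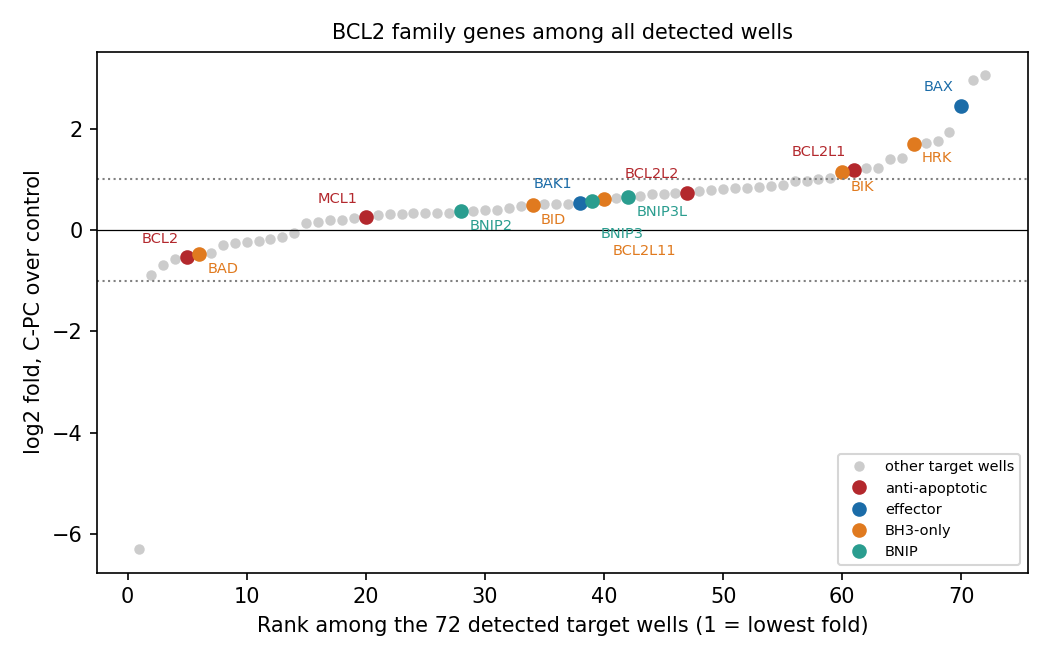
Log2 fold (C-PC over control, scaled to the mean of the 5 reference wells) for each target well detected in both samples (72), in rising order, with the BCL2 family coloured by role and dotted lines at 2-fold. BCL2 and BAD lie at the low end, BAX at place 3 from the top, and MCL1, BCL2L2 and BCL2L1 in between.

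Differences between members also need no reference well. The balance between BCL2 and BCL2L1 shifted most of the 6 pairs that the 4 members form. In the control BCL2 crossed 4.49 cycles after BCL2L1, and in the C-PC sample 6.21 cycles after it, so that the ratio of BCL2 to BCL2L1 was 3.29-fold lower. The ratio of BCL2 to BCL2L2 was 2.43-fold lower. As a yardstick, the 5 reference wells form 10 pairs, whose shifts differed by 0.18 to 1.00 cycles with a median of 0.46. The pairs of BCL2 with BCL2L1 and with BCL2L2 were past the widest gap between reference wells. BCL2 also passed that gap against the median of the target wells, at -1.06, so this is not particular to pairs of members.

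The other 4 pairs lay within the widest gap between reference wells. BCL2L1 crossed 2.18 cycles after MCL1 in the control and 1.26 cycles after it in C-PC, a 1.90-fold higher ratio of BCL2L1 to MCL1. BCL2 over MCL1 was 1.73-fold lower. BCL2L1 crossed 0.33 cycles after BCL2L2 in the control and 0.10 cycles before it in C-PC, so the order of these neighbours turned by an amount that single reference wells also showed. Among the 4 detected members MCL1 crossed first and BCL2 last in both samples. This is an order of Ct values only, since the efficiency of each assay is not stated in the sources used here.

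The effectors that these members restrain differed from each other. The Ct of BAX was 23.8 without C-PC and 22.1 with it. BAX was 5.48-fold higher in C-PC, with a log2 fold of 2.45 ± 0.39, and stood at place 3 from the top of the 72 wells. Against the median of the target wells BAX was 3.84-fold higher. BAK1 had Ct values of 25.8 and 26.0 and a log2 fold of 0.53 ± 0.39, which is 0.019 against the median of the target wells. At 2-fold, 1 of these 2 effectors was higher and 0 were lower by either scaling, beside 20.8% and 1.39% of all 72 wells with the reference mean and 9.72% and 6.94% with the median of the target wells.

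Of the 5 BH3-only genes, 2 were at least 2-fold higher against the reference mean and 0 were lower, beside 20.8% and 1.39% of all 72 wells. Against the median of the target wells 1 of the 5 was higher (HRK) and 0 were lower, beside 9.72% and 6.94%. BIK, which binds BCL2 and BCL-XL, had Ct values of 25.3 and 25.0 and was 2.20-fold higher, or 1.54-fold against the median of the target wells. HRK was 3.26-fold higher, or 2.28-fold by that second scaling, but from late Ct values of 34.5 in the control and 33.6 in C-PC. BCL2L11 had a log2 fold of 0.62 and BID one of 0.49, which became 0.11 and -0.022 against the median of the target wells. BAD, which binds BCL2, BCL-XL and BCL-W, had a log2 fold of -0.48, from Ct values of 23.8 and 25.0, next to that of BCL2. By the second scaling it was -0.99, or 1.99-fold lower.

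The panel also holds 3 BNIP genes, of which BNIP3 and BNIP3L are known from the clearance of mitochondria. They had log2 folds of 0.37 (BNIP2), 0.58 (BNIP3) and 0.64 (BNIP3L). Against the median of the target wells these were -0.15, 0.064 and 0.13. None of the 3 was past 2-fold by either scaling. Their median of 0.58 stood beside the 0.51 of all 72 wells.

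Set against BAX, each of the 4 detected members was lower in the C-PC sample, and each by more than the widest gap between reference wells. BCL2 crossed 5.38 cycles after BAX in the control and 8.38 cycles after it in C-PC, so its ratio to BAX was 7.97-fold lower. The ratio was 4.60-fold lower for MCL1, 3.28-fold lower for BCL2L2 and 2.42-fold lower for BCL2L1. MCL1 crossed 1.29 cycles before BAX in the control and 0.91 cycles after it in C-PC. These 4 ratios share the 1 BAX well, whose own error was not measured, and are not 4 separate observations. BAX stood at place 3 from the top, so every other detected target well but FAS and GADD45A was also lower against it. On the log2 scale BAX was 1.94 above the median of the target wells, which is itself past the widest gap of 1.00. The count of 4 thus reflects the BAX well, and nothing particular to the members is read from it.

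Set against BAK1, the members went both ways. BCL2 over BAK1 was 2.11-fold lower and MCL1 over BAK1 1.21-fold lower, while BCL2L1 over BAK1 was 1.56-fold and BCL2L2 over BAK1 1.15-fold higher. Of these, the BCL2 ratio alone passed the widest gap between reference wells, at -1.07 against 1.00. BAK1 lay near the median of the target wells, at 0.019, and BCL2 passed the gap against that median too, at -1.06.

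Against the BH3-only genes the members kept this order, as they must, since each partner moves all 4 ratios by the same amount. BCL2 was lower against BCL2L11, BID, BIK and HRK by between 2.05-fold and 4.75-fold. The largest of these was against HRK, with its late Ct values of 34.5 in the control and 33.6 in C-PC. BCL2 stood at place 5 from the bottom of the 72 wells, so it was lower against most other wells too. BCL2 and BAD kept their distance, with a gap of 5.38 cycles in the control and 5.45 cycles in C-PC. BCL2L1 and BIK kept theirs too, at 0.66 and 0.69 cycles. The ratio of BCL2L1 to BAD was 3.15-fold higher in C-PC, and that of BCL2L2 to BAD 2.33-fold higher. BAD stood at place 6 from the bottom, so most other wells were also higher against it. Nothing particular to the members is read from these ratios.

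**Figure D4:**
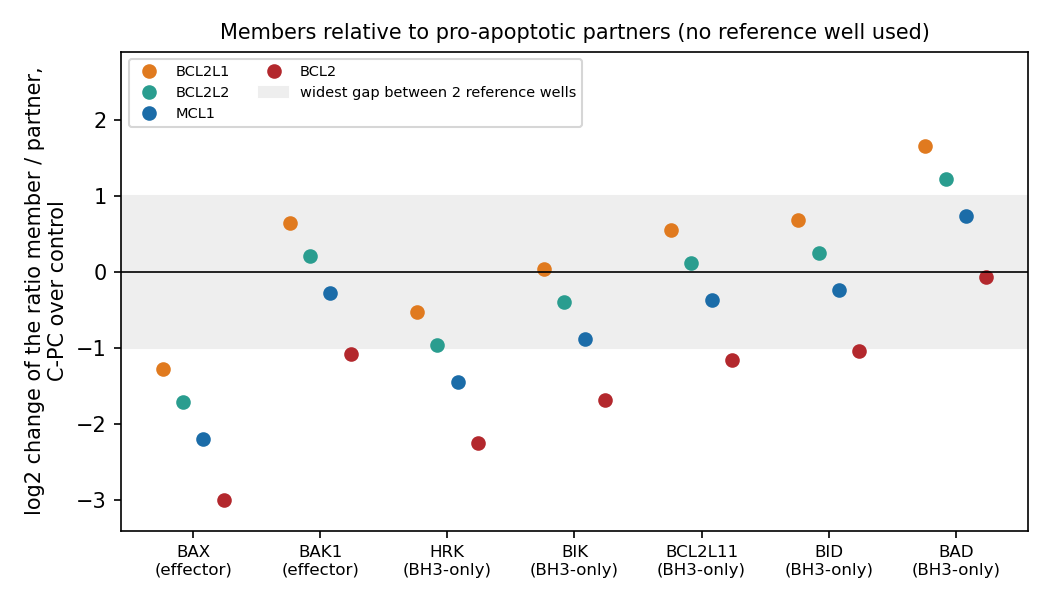
Log2 change (C-PC over control) of the ratio of each detected anti-apoptotic member to each effector or BH3-only gene, with no reference well used; the grey band spans the widest gap of 1.00 between 2 reference wells. All 4 members lie below the band against BAX, with BCL2 lowest at -3.00, and BCL2L1 lies highest against BAD at 1.66.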

How the data were processed

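LNCaP cells were profiled with a SYBR Green PCR panel from 1000 ng of total RNA over 40 cycles, per the labels' protocols. The authors deposited Ct values that are not normalized (treated here as a score in cycles), per the file headers a fold for C-PC over control scaled to housekeeping genes, and a ratio for each well and sample. For the 6 members that deposited ratio matched 2 to the power of minus the Ct difference to the mean of the 5 reference wells, to within 0.005 in log2 units. The authors' folds differed from those computed here by at most 0.005 for the members.

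Log2 folds were computed from Ct, with detection at a Ct under 35 and a threshold of 2-fold, and a missing side set to 35 as a bound. Gene names follow the catalogue layout and not a deposited table. Named genes were all 6 members, the effector, BH3-only and BNIP lists, the lymphocyte genes of the panel as another cell type, and the reference genes. BAG1, BAG3 and BFAR were added after their values were seen. Members and lists were chosen with earlier results of these data known. PCR gives no read depth, and precision is limited by 1 sample per group. No test was run. The calculation was tested on simulated data. The tools were pandas 2.3.3, numpy 2.4.6 and matplotlib 3.10.9 under Python 3.11.15.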

Additional observations from a re-analysis of the deposited data

How the results depend on the processing

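The choice of reference set the counts of members. Members at least 2-fold higher numbered 1 with the reference mean, 2 with H03 or H04 alone, and 0 with H01 alone, H05 alone, the plate median or no reference. With a 1.5-fold threshold 2 members were higher, and with a 3-fold threshold 0. Members at least 2-fold lower numbered 0 with the reference mean and 1 with H05 alone, the plate median or no reference. For the members the median log2 fold, 0.50 at first, was -0.26 without any reference, -0.018 with the plate median, -0.045 when H05 served alone and 0.95 when H04 did. The cause lies in the construction, since a reference adds the same amount to every member. The authors' folds, Ct limits of 32 and 37 or none, and an efficiency of 90% per cycle left both counts as they were and the median within the SD of 0.39. With a limit of 37 or none, BCL2A1 entered with its 35 as a measured cycle, at 1.96-fold lower, just short of the threshold. Read as a bound, BCL2A1 could count among the members at least 2-fold lower. At an efficiency of 90% all 8 ratios to BAX and BAK1 stayed within the SD. This is no check on them, since it rescales every ratio by the same factor and cannot change a sign. Efficiencies that differ between assays were not tried. Besides the median, MCL1 changed sign, from 0.25 to -0.26 with the plate median, -0.29 when H05 served alone and -0.50 without any reference, as did BCL2L2, from 0.74 to -0.016 with no reference. BCL2 and BCL2L1 kept their sign under all alternatives run for them. Of 84 alternative values, 53 stayed within these margins, and of the 36 for the folds of single members 20 did. Some settings could hardly move a value, such as the authors' folds, which follow the same calculation, and the common efficiency. The tally is therefore no measure of stability. No paired analysis was possible because there is 1 sample per group, and leaving out a run was not possible with 1 value per well.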

Other observations

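Other wells belong to proteins linked to BCL2 by name or by binding, and were looked at after their values were seen. BAG1, a co-chaperone found as a BCL2-binding protein, read a Ct of 28.1 without C-PC and 27.4 with it. It was 2.66-fold higher against the reference mean and 1.86-fold higher against the median of the target wells. BAG3, of the same family, was 1.10-fold higher against the reference mean and had a ratio of 0.770 against the median of the target wells. BFAR, a membrane regulator that binds BCL2, was 1.42-fold higher and at a ratio of 0.997 by the same measures. The ratios of BAG1, BAG3 and BFAR to BCL2 were all higher in C-PC, most for BAG1, at 3.87-fold. BCL2 stood at place 5 from the bottom of the 72 wells, so most other wells were also higher against it. Nothing particular to these genes is read from their ratios to BCL2.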
